A study of Mus musculus with 24 samples.

Results

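The genes described here are 10 genes of antioxidant defence, taken by symbol from the 55385 genes counted in the brains of Ts65Dn mice and their wild-type (wt) littermates. They are the superoxide dismutases Sod1, Sod2 and Sod3, the peroxide-removing enzymes Cat, Gpx1 and Gpx4, the transcription factors Bach1 and Nfe2l2, and the inducible enzymes Hmox1 and Nqo1. They were chosen by function, though with earlier results of these data known, and all 10 passed the filter on low counts in every comparison. Sod1 and Bach1 lie in the segment of mouse chromosome 16 (Mmu16) that Ts65Dn mice carry in an extra copy, and the other 8 genes have the normal copy number.

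RNA-Seq was done on the hippocampus (HIP) and the entorhinal cortex (EC) of 6 Ts65Dn and 6 wt mice, all male and aged 5 to 6 months, which gave 24 libraries and 4 groups of 6. The Ts65Dn mice came as a subline from The Jackson Laboratory, were bred on an F1 B6C3B background and carry an extra small chromosome with Mmu16 from Mir155 to the telomere and Mmu17 from Scaf8 to Pde10a. The Mmu17 part has no counterpart on human chromosome 21, which limits the line as a model of Down syndrome, and the tissue was sequenced whole. The values are raw counts per gene, and the libraries held 23128589 to 40476492 counts on genes.

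Superoxide dismutases turn superoxide into hydrogen peroxide, which catalase and the glutathione peroxidases then remove. Under oxidative stress NRF2, the product of Nfe2l2, is released from KEAP1 and, with a small MAF protein, binds antioxidant response elements in the promoters of detoxifying genes. BACH1 is a haem-binding repressor that competes for such elements, with Hmox1 as its best-known target, and both Sod1 and Bach1 have human counterparts on chromosome 21.

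As a check of the genotype labels, the triplicated Mmu16 genes had median fold changes over wt of 1.43 to 1.54 in 5 Ts65Dn HIP libraries and of 1.46 to 1.55 in 5 Ts65Dn EC libraries. In the library labelled Ts65Dn replicate 3 the median was 1.012 in the HIP (88 genes) and 0.991 in the EC (85 genes). Both lay inside the wt ranges, 0.978 to 1.014 (HIP) and 0.990 to 1.007 (EC). This mouse went against its label, which was kept, and the fold changes between genotypes of the members, their neighbours and the other genes called by edgeR are given with and without it. Of 10 hippocampal marker genes, 9 were called higher in the wt HIP than in the wt EC, and of 10 cortical markers, 8 were called lower, so the regions had the markers of their labels.

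Sod1 encodes the cytosolic copper-zinc enzyme. It lies at chr16:90220754-90226329 on the plus strand (GRCm38, GENCODE vM21). Bach1 lies at chr16:87698945-87733346, also on the plus strand. The promoter windows of both genes are shown because these were the triplicated members, and that of Gclm, a target of NRF2 outside the triplicated segments, because it moved the other way (below). Each window comes from RefSeq (GRCm38.p6) and runs from 250 bases before the gene's RefSeq start to 50 bases after it. For Sod1 and Bach1 that start is not the GENCODE start given above. Capitals mark TGACNNNGC, the core of the antioxidant response element, read on either strand, so that a match on the opposite strand appears as its reverse complement. The windows are chr16:90220512-90220811, chr16:87698704-87699003 and chr3:122245307-122245606, all on the plus strand.
Sod1: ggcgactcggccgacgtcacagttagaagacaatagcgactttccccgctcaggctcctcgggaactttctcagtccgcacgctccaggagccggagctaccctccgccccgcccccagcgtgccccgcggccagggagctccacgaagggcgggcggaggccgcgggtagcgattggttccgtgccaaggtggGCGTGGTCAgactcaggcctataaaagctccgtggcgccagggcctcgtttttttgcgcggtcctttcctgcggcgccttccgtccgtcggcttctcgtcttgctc
Bach1: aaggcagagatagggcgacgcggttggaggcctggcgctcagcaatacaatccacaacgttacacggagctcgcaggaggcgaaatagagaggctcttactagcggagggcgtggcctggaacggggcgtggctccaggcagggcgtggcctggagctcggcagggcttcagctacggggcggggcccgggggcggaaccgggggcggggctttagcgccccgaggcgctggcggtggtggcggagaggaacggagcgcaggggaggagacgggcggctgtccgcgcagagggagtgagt
Gclm: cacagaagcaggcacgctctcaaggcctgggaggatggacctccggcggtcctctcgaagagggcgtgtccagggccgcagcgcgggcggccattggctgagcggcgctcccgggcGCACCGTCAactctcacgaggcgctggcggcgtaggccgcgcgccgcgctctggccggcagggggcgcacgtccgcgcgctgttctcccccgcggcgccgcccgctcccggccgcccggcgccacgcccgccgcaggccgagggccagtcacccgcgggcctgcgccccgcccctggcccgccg
The Sod1 window held 1 match, from 56 to 48 bases before its RefSeq start. The Gclm window held 1 match, from 134 to 126 bases before its RefSeq start. Both were on the opposite strand. The Bach1 window held 0 matches. RefSeq windows were at hand for 8 of the 10 members, all but Hmox1 and Sod3, and 2 of these 8, Sod1 and Nfe2l2, held a match. Over all promoter windows of this length, 12.4% of 32851 did. A match is a description of the letters and not a bound site.

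Sod1 was higher in every Ts65Dn library than in every wt library, in both regions. In the HIP, its level in CPM (counts scaled to library size by the TMM method) was 78.3 at the lowest, 81.7 at the median and 88.1 at the highest in wt. In the Ts65Dn HIP it was 152 in replicate 1, 139 in replicate 2, 95.0 in replicate 3, 142 in replicate 4, 141 in replicate 5 and 148 in replicate 6. The 5 Ts65Dn libraries other than replicate 3 lay close together and well above wt, and replicate 3 lay between them and wt. Sod1 rose 1.65-fold in the Ts65Dn HIP (95% interval 1.45 to 1.89), with an adjusted p of 0.00205 in edgeR's quasi-likelihood test. Without replicate 3 the rise was 1.75-fold (adjusted p = 5.7e-07).

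In the EC, the Sod1 level was 94.8 CPM at the lowest, 101 at the median and 122 at the highest in wt, where replicate 2 gave the highest value. In the Ts65Dn EC it was 175 in replicate 1, 166 in replicate 2, 128 in replicate 3, 186 in replicate 4, 176 in replicate 5 and 157 in replicate 6. The groups did not overlap here either. Sod1 rose 1.57-fold (95% interval 1.39 to 1.78; edgeR, adjusted p = 0.00299), and 1.64-fold without replicate 3 (adjusted p = 4.11e-05). It was called in all 12 fits that left out a mouse, in each region.

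In the library labelled Ts65Dn replicate 3, Sod1 stood at 1.16 times the wt mean in the HIP and 1.24 times in the EC, above every wt library of the same region. Bach1 stood at 1.08 times the wt mean there in the HIP and 0.802 times in the EC.

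Bach1 was also higher in every Ts65Dn HIP library than in every wt HIP library. Its wt HIP level was 13.2 CPM at the lowest, 14.9 at the median and 15.6 at the highest. In the Ts65Dn HIP it was 20.7 in replicate 1, 24.3 in replicate 2, 15.7 in replicate 3, 17.7 in replicate 4, 19.5 in replicate 5 and 21.4 in replicate 6. Replicate 3 lay just above the highest wt library. Bach1 rose 1.37-fold (95% interval 1.19 to 1.57; edgeR, adjusted p = 0.0335) and 1.43-fold without replicate 3 (adjusted p = 0.00418). The call was less firm than that of Sod1: it was kept in 3 of the 12 fits that left out a mouse, with adjusted p-values up to 0.0853 without Ts65Dn replicate 6.

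In the EC, the Bach1 level was 12.4 CPM at the lowest, 13.3 at the median and 15.6 at the highest in wt. In the Ts65Dn EC it was 18.6 in replicate 1, 20.0 in replicate 2, 10.9 in replicate 3, 19.7 in replicate 4, 19.3 in replicate 5 and 21.3 in replicate 6. Replicate 3 was below every wt library, and the other 5 Ts65Dn libraries were above every wt library. With all 12 libraries the fold change was 1.33 (95% interval 1.10 to 1.61) and Bach1 was not called (edgeR, adjusted p = 0.101). It was called with DESeq2 (adjusted p = 0.0314), and in edgeR without replicate 3, where it rose 1.43-fold (adjusted p = 0.00141), the only one of the 12 fits without a mouse that called it.

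**Figure D1:**
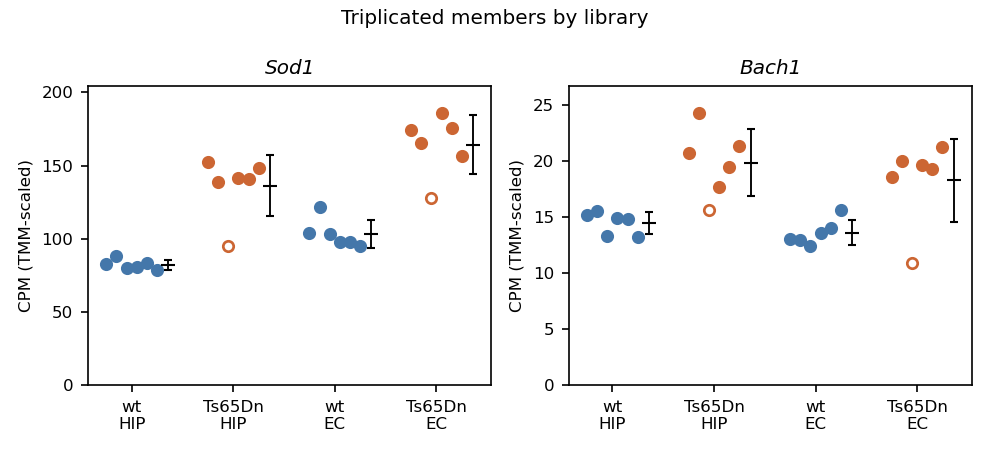
Level of Sod1 (left) and Bach1 (right) in CPM by library in the 4 groups (blue, wt; orange, Ts65Dn; open circle, the library labelled Ts65Dn replicate 3), with the mean and SD of each group of 6 beside its points. All Ts65Dn points lie above the wt points of the same region for Sod1 and, in the HIP, for Bach1, whereas in the EC the open circle of Bach1 lies at 10.9 CPM, below wt.

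Among the triplicated Mmu16 genes tested, Sod1 stood near the top by fold change, 9th of 90 in the HIP and 12th of 87 in the EC, and Bach1 in the lower part, 59th of 90 and 66th of 87. The median fold change over these genes was 1.41 (HIP) and 1.42 (EC). Without replicate 3 the medians were 1.48 in both regions, and Sod1 stood 9th of 92 in the HIP and 16th of 89 in the EC, Bach1 63rd and 57th. These ranks are a description.

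The annotated neighbours of each gene place these values. Scaf4, on the opposite strand, shares its last 650 bases with those of Sod1, and the strand setting of the authors' counting is not given in the sources used here, so reads from the shared bases may have been left out or assigned to either gene. Scaf4, an RNA-processing factor, rose 1.39-fold in both regions (edgeR, adjusted p = 0.0274 and 0.0131), and 1.46-fold in both without replicate 3. Tiam1, a Rac activator on the other side of Sod1, rose 1.35-fold in the HIP and 1.53-fold in the EC (adjusted p = 0.0367 and 0.0455), and 1.42-fold and 1.65-fold without replicate 3. Beside Bach1, Map3k7cl had a median of 0.409 CPM in the wt HIP and 0.763 CPM in the Ts65Dn HIP and was called in neither region (fold changes 1.78 and 1.20, adjusted p = 0.160 and 0.537), nor without replicate 3 (1.76 and 1.15). 2810407A14Rik had fold changes of 1.42 (HIP) and 1.39 (EC) and was not called either (adjusted p = 0.213 and 0.260), nor without replicate 3, at 1.53 and 1.52 (adjusted p = 0.0713 and 0.100).

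Over the 24 libraries, the genes whose log2 CPM followed that of Sod1 most closely were Atp5o (Pearson r = 0.979), Psmg1 (0.969), Wrb (0.963), Rcan1 (0.959) and Gart (0.953), all triplicated on Mmu16. Those closest to Bach1 were Scaf8 (0.906), A730009L09Rik (0.905), Ifnar2 (0.905), Tulp4 (0.901) and Gtf2h5 (0.901). Of these, Scaf8, Tulp4 and Gtf2h5 lie in the triplicated Mmu17 segment, Ifnar2 in that of Mmu16, and A730009L09Rik starts at base 84515121 of chromosome 16, before Mir155, from which the triplicated genes were counted here. It still lies beyond the mapped breakpoint of Ts66Yah, a line made from Ts65Dn by shortening the extra chromosome, and so has the extra copy too. The 24 points share 12 mice, 2 genotypes and 2 regions, so these values describe the series and carry no test.

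Of the 10 members, 2 were called in the HIP, both higher, in a region where 1.04% of 17355 genes were called and 0.542% were called higher. In the EC 1 was called, where 2.5% of 17049 genes were called and 1.15% were called higher. Without replicate 3, Sod1 and Bach1 were called in both regions, where 1.82% of 17452 genes (HIP) and 2.79% of 17229 genes (EC) were called. Of the triplicated Mmu16 genes, 58 of 92 (63.0%, HIP) and 62 of 89 (69.7%, EC) were then called higher. All 6 Ts65Dn libraries were above all 6 wt libraries for 0.622% of genes in the HIP, among them Sod1 and Bach1, and for 1.37% in the EC, among them Sod1. With replicate 3 set aside, the other 5 were above wt for 1.98% of HIP genes and 2.57% of EC genes, Sod1 and Bach1 among them in each region. None of the 8 members with the normal copy number was called in either region by edgeR with all libraries or without replicate 3. In the 12 fits per region that left out a mouse, edgeR called 1 of these 8 in 1 fit, Gpx1 in the HIP without wt replicate 4 (1.24-fold, adjusted p = 0.0359). Of these 8, Gpx1 and Hmox1 had an unadjusted p under 0.05 in the HIP and Gpx1 in the EC, as against 14.8% and 19% of all genes. DESeq2, which called 3.58% of HIP genes and 7.43% of EC genes, called 1 of these 8, Gpx1 in the HIP. The median log2 fold change over all 10 members was 0.11 in both regions, and over all genes tested 0.00466 (HIP) and 0.00463 (EC). The 10 include the triplicated Sod1 and Bach1, so 0.11 is not the median of the 8 members of normal copy number.

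**Figure D2:**
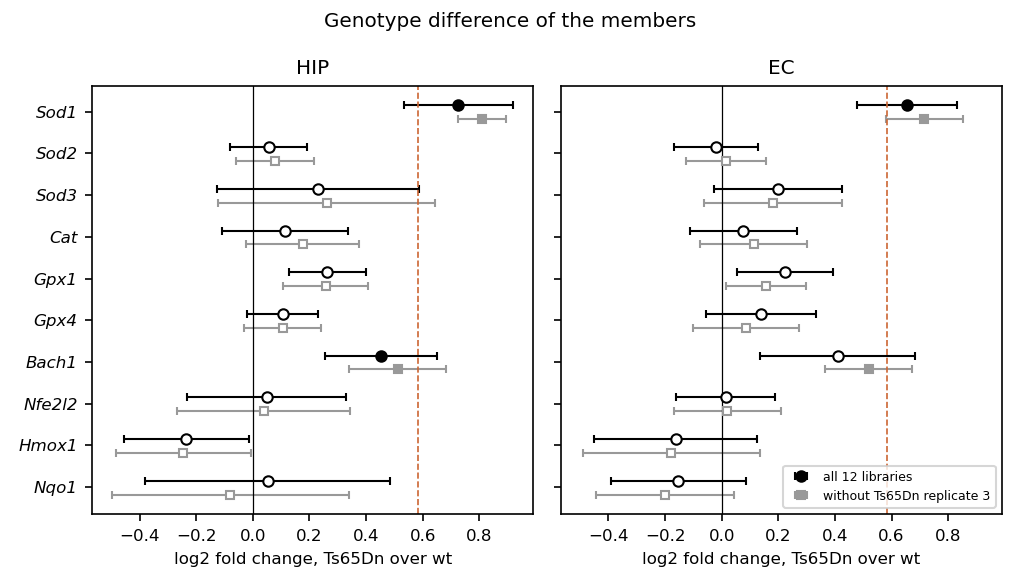
Log2 fold change of the 10 members, Ts65Dn over wt, with 95% intervals in the HIP (left) and the EC (right), from all 12 libraries of a region (black circles) and without the library labelled Ts65Dn replicate 3 (grey squares). Filled symbols were called at an adjusted p under 0.05, the dashed line marks 1.5-fold, and only Sod1 and Bach1 have filled symbols.

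Sod2, the mitochondrial manganese enzyme, lies on chromosome 17, 4.02 Mb beyond the triplicated Mmu17 segment. Its level was 128 to 164 CPM in the wt HIP (median 136) and 133 to 161 in the Ts65Dn HIP (median 146), and 126 to 156 in the wt EC (median 150) and 124 to 154 in the Ts65Dn EC (median 146). The genotypes overlapped almost wholly. Sod2 had a fold change of 1.04 in the HIP (95% interval 0.946 to 1.14; edgeR, adjusted p = 0.730), and of 0.985 in the EC (0.889 to 1.09; adjusted p = 0.909). Without replicate 3 these were 1.06 and 1.01.

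Sod3 encodes the extracellular enzyme. Its wt HIP level was 10.2 CPM at the lowest, 10.6 at the median and 13.8 at the highest, and in the Ts65Dn HIP it was 9.61, 12.1 and 21.4. Ts65Dn replicate 1 gave the highest value, far above the other Ts65Dn libraries. In the EC it was 10.3, 11.5 and 14.0 in wt and 11.2, 13.8 and 17.2 in Ts65Dn. Sod3 was not called, with fold changes of 1.17 (HIP, 95% interval 0.916 to 1.50) and 1.15 (EC, 0.980 to 1.34; edgeR, adjusted p = 0.566 and 0.332). Without Ts65Dn replicate 1 the HIP value was 1.03 (adjusted p = 0.917) and the EC value 1.09 (adjusted p = 0.584). Without replicate 3 they were 1.20 and 1.13.

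Cat encodes catalase, the peroxisomal enzyme. Its level was 49.0 to 66.5 CPM in the wt HIP (median 59.1) and 49.5 to 72.6 in the Ts65Dn HIP (median 68.0), and 38.5 to 51.8 in the wt EC (median 48.4) and 42.4 to 57.3 in the Ts65Dn EC (median 48.0). The groups overlapped, and Cat had fold changes of 1.08 (HIP; 95% interval 0.928 to 1.26) and 1.05 (EC; 0.925 to 1.20), with adjusted p-values of 0.657 and 0.703 in edgeR. The fold changes without replicate 3 were 1.13 and 1.08.

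The ratio of Sod1 to Cat, set to 1 at the wt mean of each region, was higher in all 6 Ts65Dn libraries than in all 6 wt libraries of each region. The range was 0.851 to 1.19 in the wt HIP and 1.35 to 1.87 in the Ts65Dn HIP, and 0.882 to 1.20 in the wt EC and 1.34 to 1.86 in the Ts65Dn EC. Replicate 3 was inside the Ts65Dn range, at 1.36 in the HIP and at the lowest Ts65Dn value of 1.34 in the EC. This ratio carries the higher Sod1, which alone was above every wt library in all 6 Ts65Dn libraries of each region. No test was made of the ratios.

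Gpx1, the cytosolic selenium-dependent glutathione peroxidase, came closest to a call among the members of normal copy number. Its level was 37.6 CPM at the lowest, 39.8 at the median and 47.7 at the highest in the wt HIP, and 45.7, 50.4 and 53.6 in the Ts65Dn HIP. In the EC it was 62.9, 67.6 and 79.5 in wt and 71.3, 80.8 and 100.2 in Ts65Dn, with replicate 3 the highest. In the HIP 4 of 6 Ts65Dn libraries were above all wt libraries, and in the EC 3 of 6. How many other genes were separated to this extent was not counted, so these counts alone do not set Gpx1 apart. The fold change was 1.20 in the HIP (95% interval 1.09 to 1.32; edgeR, adjusted p = 0.0730), and the EC value was 1.17 (1.04 to 1.31; adjusted p = 0.144). Without replicate 3 these were 1.20 (adjusted p = 0.0835) and 1.11 (adjusted p = 0.213). DESeq2 called Gpx1 in the HIP, with all libraries (adjusted p = 0.00918) and without replicate 3 (adjusted p = 0.0163).

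Gpx1 and Gpx4 both lie in the fifth of genes with the highest GC content, whose median log2 fold change was 0.09 (HIP) and 0.10 (EC). With GC content and length removed, the HIP log2 fold change of Gpx1 went from 0.26 to 0.20 (edgeR, adjusted p = 0.234) and its EC value from 0.22 to 0.14 (adjusted p = 0.238). That of Gpx4 went from 0.11 to 0.022 in the HIP (adjusted p = 0.925) and from 0.14 to 0.037 in the EC (adjusted p = 0.861).

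Gpx4, which reduces lipid peroxides, was at 48.2 to 58.4 CPM in the wt HIP (median 50.8) and 51.2 to 61.5 in the Ts65Dn HIP (median 55.8), and at 52.3 to 74.7 in the wt EC (median 60.6) and 61.8 to 80.3 in the Ts65Dn EC (median 67.1). Between genotypes Gpx4 differed 1.08-fold (HIP; 95% interval 0.985 to 1.17) and 1.10-fold (EC; 0.962 to 1.26), with adjusted p-values of 0.443 and 0.446 in edgeR. Leaving out replicate 3 gave 1.08 and 1.06. The ratio of Sod1 to Gpx1 was above the wt range in 5 of 6 Ts65Dn libraries of each region, as was that of Sod1 to Gpx4. The exception was replicate 3 each time. Both ratios carry the higher Sod1, and neither was tested.

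Nfe2l2 had levels of 16.1 to 23.3 CPM in the wt HIP (median 20.0) and 13.0 to 24.2 in the Ts65Dn HIP (median 21.6), where replicate 4 gave the lowest value. In the EC it was 11.9 to 16.3 in wt (median 13.8) and 13.0 to 16.4 in Ts65Dn (median 13.8). Nfe2l2 was not called in the HIP (fold change 1.04, 95% interval 0.852 to 1.26; edgeR, adjusted p = 0.896) or in the EC (fold change 1.01, 0.895 to 1.14; adjusted p = 0.953). With replicate 3 left out the fold changes were 1.03 and 1.01. The ratio of Bach1 to Nfe2l2, set to 1 at the wt mean, had a median of 1.32 in the Ts65Dn HIP and 1.38 in the Ts65Dn EC and was above the wt range in 4 of 6 Ts65Dn libraries of each region. It carries the higher Bach1 of most Ts65Dn libraries as well as Nfe2l2 and was not tested.

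Hmox1 encodes the inducible haem oxygenase. It was a gene of few counts, with 93 to 249 per library. Its wt HIP level was 5.77 CPM at the lowest, 5.99 at the median and 6.68 at the highest, and in the Ts65Dn HIP it was 4.25, 5.01 and 6.36. In the HIP 5 of 6 Ts65Dn libraries were below every wt library, the exception being replicate 2, and at least 5 of 6 were below for 3.76% of genes, with all 6 below for 1.07%. The fold change was 0.850 (95% interval 0.730 to 0.990), which was not called (edgeR, adjusted p = 0.307). In the EC the level was 3.10, 4.50 and 5.30 CPM in wt and 3.27, 4.03 and 4.51 in Ts65Dn, the fold change was 0.893 (0.731 to 1.09), and the groups overlapped (adjusted p = 0.562). Without replicate 3 the fold changes were 0.844 and 0.884.

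The ratio of Hmox1 to Bach1, set to 1 at the wt mean, was 0.904 to 1.10 in the wt HIP and 0.523 to 0.811 in the Ts65Dn HIP, with all 6 Ts65Dn libraries below wt and replicate 3 the highest of them. In the EC it was 0.777 to 1.23 in wt and 0.495 to 1.17 in Ts65Dn, where 5 of 6 Ts65Dn libraries were below wt and replicate 3 was at 1.17. The ratio carries the higher Bach1 as well as Hmox1 and was not tested.

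Nqo1 encodes a quinone reductase and is a classical target of NRF2. Its counts ranged from 95 to 332 per library. Its level was 4.91 CPM at the lowest, 5.70 at the median and 7.90 at the highest in the wt HIP, and 4.07, 6.22 and 8.89 in the Ts65Dn HIP. In the EC it was 3.75, 4.36 and 5.27 in wt and 3.47, 3.85 and 4.57 in Ts65Dn. Nqo1 had fold changes of 1.04 (HIP; 95% interval 0.768 to 1.40) and 0.900 (EC; 0.762 to 1.06), with adjusted p-values of 0.934 and 0.501 in edgeR. The HIP value has no settled direction, since its log2 fold change went from 0.05 to -0.08 without replicate 3. The EC fold change was then 0.870.

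**Figure D3:**
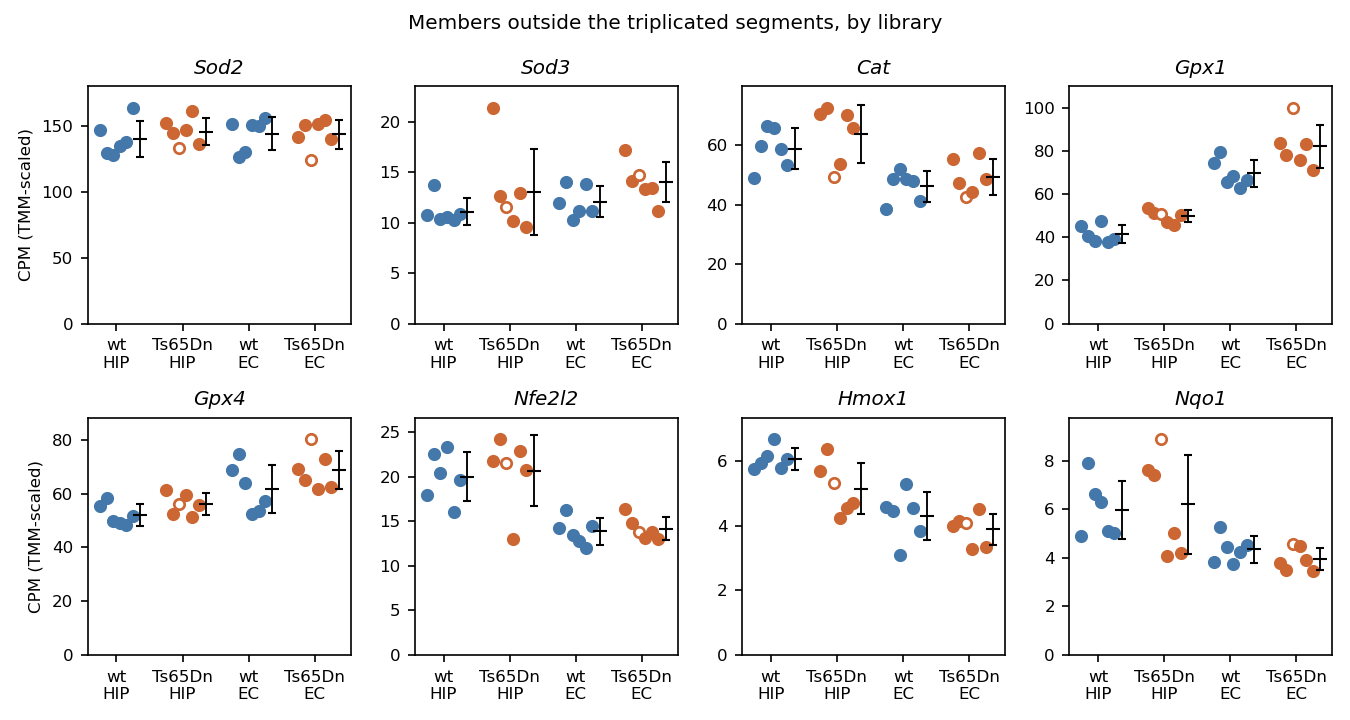
Level in CPM of the 8 members of normal copy number by library in the 4 groups (blue, wt; orange, Ts65Dn; open circle, the library labelled Ts65Dn replicate 3), with the mean and SD of each group of 6. The Ts65Dn points overlap the wt points of the same region in all 8 panels, and Hmox1 in the HIP has 5 Ts65Dn points below the wt points.

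Tissue makeup differed between the HIP libraries. The summed level of 7 choroid plexus markers was 441 to 7450 CPM in the wt HIP and 350 to 7678 in the Ts65Dn HIP, and in the EC it was 265 to 316 in wt and 220 to 289 in Ts65Dn. None was called between genotypes among the 7 markers tested in the HIP or the 4 that passed the filter in the EC, and none of the 7 was at 0 in every library. The highest sums were in Ts65Dn replicate 1 and wt replicate 2, which also gave the highest Sod3 level of their genotype. The summed level of 7 meningeal fibroblast markers was highest in the same libraries, at 169 CPM in Ts65Dn replicate 1 and 91.6 in wt replicate 2, over ranges of 41.9 to 169 in the Ts65Dn HIP and 39.2 to 91.6 in the wt HIP. Ts65Dn replicate 2 was close behind, at 166 CPM, and its Sod3 level was 12.6 CPM, near the Ts65Dn HIP median of 12.1. The median log2 fold change of the meningeal markers was 0.62 in the HIP, with 0 of 7 called, and -0.0025 in the EC. In wt replicate 2 Nqo1 was highest of the wt HIP libraries, whereas Ts65Dn replicate 4 had the lowest choroid plexus sum and the lowest Nqo1 and Nfe2l2 levels of the Ts65Dn HIP. Not all libraries followed this order. Nqo1 was highest of the Ts65Dn HIP in replicate 3, at 8.89 CPM with a choroid plexus sum of 5037 CPM, against 7.62 CPM in replicate 1. Ts65Dn replicate 6 had a sum of 486 CPM and Nfe2l2 at 20.8 CPM, near the Ts65Dn HIP median of 21.6. In the EC, Ts65Dn replicate 1 also gave the highest Sod3 level, at 17.2 CPM, with a choroid plexus sum of 289 CPM. The part of these tissues in the values of Sod3, Nfe2l2 and Nqo1 was not tested. In whole tissue, fewer cells of a type and less RNA per cell cannot be told apart.

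**Figure D4:**
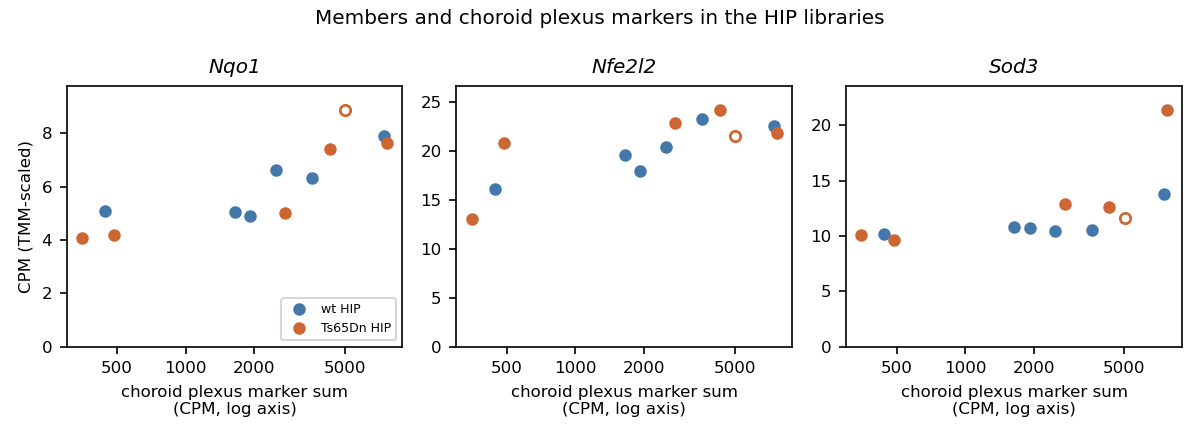
Level of Nqo1, Nfe2l2 and Sod3 in CPM against the summed CPM of 7 choroid plexus markers (log axis) in the 12 HIP libraries (blue, wt; orange, Ts65Dn; open circle, the library labelled Ts65Dn replicate 3). The sums run from 350 to 7678 CPM, and the library with the lowest sum has the lowest Nqo1 and Nfe2l2 levels.

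Of the markers tested in the other lists, 0 were called in the HIP for hippocampus, cortex, red blood cells, endothelial cells, astrocytes, oligodendrocytes and striatum, and 1 of 8 for microglia, lower in Ts65Dn. In the EC 1 of 10 cortical and 1 of 8 microglial markers were called lower and 1 of 6 striatal markers higher, and 0 in the other lists. The summed level of 7 astrocyte markers in the EC was 6504 to 7526 CPM in wt and 5069 to 6828 in Ts65Dn, and their median log2 fold change was -0.22. That of the 6 red blood cell markers in the EC was 138 to 549 CPM in wt and 106 to 296 in Ts65Dn. What these add to the members' values was not tested.

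The genotype difference did not differ detectably between the regions for any member. In a fit on all 24 libraries with a term for each mouse, edgeR called 0 members for the interaction and 0 of 18109 genes (0%), and DESeq2 called 0 members. At an unadjusted p under 0.05 there were 742 genes (4.1%) and 0 members, whose p-values ran from 0.211 to 0.970. For Sod1 the log2 difference, HIP minus EC, was 0.06 (95% interval -0.08 to 0.20), and for Bach1 it was 0.05 (-0.19 to 0.29). These intervals leave room for a difference at Bach1 of up to 0.29 on the log2 scale.

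In wt mice, 7 of the 10 members were called between the regions, in a series in which 61.3% of 17196 genes were (31% higher in the HIP, 30.3% lower). Lower in the HIP than in the EC were Gpx1 (0.592-fold, 95% interval 0.548 to 0.639; edgeR, adjusted p = 5.89e-07), Sod1 (0.795-fold, 0.752 to 0.840; adjusted p = 2.02e-05) and Gpx4 (0.845-fold, 0.791 to 0.902; adjusted p = 0.000601). Higher in the HIP were Nfe2l2 (1.43-fold, 1.29 to 1.59; adjusted p = 8.49e-05), Hmox1 (1.41-fold, 1.20 to 1.67; adjusted p = 0.00226), Nqo1 (1.36-fold, 1.17 to 1.58; adjusted p = 0.00245) and Cat (1.27-fold, 1.20 to 1.34; adjusted p = 1.36e-05). Sod2, Sod3 and Bach1 were not called (adjusted p = 0.323, 0.149 and 0.301).

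The levels of different genes were compared per length, as mean CPM per kilobase of all annotated exons. In the wt HIP the order was Gpx4 (30.2), Gpx1 (28.8), Cat (22.5), Sod1 (20.7), Sod2 (14.0), Nfe2l2 (5.26), Nqo1 (3.85), Hmox1 (3.46), Sod3 (2.97) and Bach1 (2.35). The libraries of neighbours in this order overlapped except between Gpx1 and Cat, Sod1 and Sod2, Sod2 and Nfe2l2, and Sod3 and Bach1. In the wt EC, Gpx1 led (48.3), ahead of Gpx4 (35.8) and Sod1 (26.0), and Bach1 was again last (2.20). The place of Sod1 depends on the length used, since its annotated exons span 3970 bases and its median protein-coding transcript 641. Per kilobase of the coding transcript Sod1 was first in both regions, at 128 CPM in the wt HIP and 161 in the wt EC, followed by Gpx4 in the HIP (54.3) and Gpx1 in the EC (88.5).

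Beyond the members, 123 other genes in 7 lists of antioxidant defence were followed. Of 112 tested in the HIP, 3 were called higher and 0 lower (2.68%, against 1.04% of all genes), and of 111 tested in the EC, 3 were called higher and 3 lower (5.41%, against 2.5%). The genes called higher were the same in both regions, Cbr1, Cbr3 and Dpp3, and those called lower in the EC were Gclm, Sesn3 and Maoa. Cbr1 and Cbr3 are triplicated, so the shares above include genes with the extra copy, and in the HIP only Dpp3 was called outside the triplicated segments.

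Cbr1 and Cbr3 encode carbonyl reductases, count as NRF2 targets and lie side by side in the triplicated Mmu16 segment, so they carry the extra copy themselves. Cbr1 had a wt median of 43.0 CPM and a Ts65Dn median of 63.0 CPM in the HIP, whereas the EC medians were 47.7 and 72.7. It rose 1.44-fold in the HIP (edgeR, adjusted p = 0.0269) and 1.47-fold in the EC (adjusted p = 0.00680), and 1.52-fold and 1.54-fold without replicate 3. Cbr3 had medians of 8.70 and 13.5 CPM (HIP) and of 8.64 and 12.8 CPM (EC) and rose 1.56-fold and 1.53-fold (adjusted p = 0.0239 and 0.0200), and 1.63-fold and 1.50-fold without replicate 3. All 6 Ts65Dn libraries were above wt for Cbr3, and 5 of 6 for Cbr1. The HIP calls were kept in 5 of the 12 fits without a mouse for Cbr1 and in 6 for Cbr3, and the EC calls in 12 and 11. Of the 23 NRF2 targets listed, none outside the triplicated segments was called higher, and the median log2 fold change of those tested was 0.02 (HIP) and 0.01 (EC).

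Gclm encodes the modifier subunit of glutamate-cysteine ligase, the first step of glutathione synthesis, and stands in both the glutathione list and the list of NRF2 targets. Its EC level was 62.1 CPM at the lowest, 65.1 at the median and 69.6 at the highest in wt, and 51.4, 54.2 and 58.6 in Ts65Dn. All 6 Ts65Dn EC libraries were below all 6 wt libraries, as for 1.06% of genes. Gclm fell to 0.824 of the wt level in the EC (edgeR, adjusted p = 0.0145) and to 0.832 without replicate 3. This call held in all 12 fits without a mouse and after the removal of GC content and length (adjusted p = 0.0304). With a term for the replicate number, alone or with that removal, the call was lost. In the HIP 5 of 6 Ts65Dn libraries were below wt and the fold change was 0.856, which edgeR did not call with all libraries (adjusted p = 0.0640) but called without replicate 3 (0.847, adjusted p = 0.0486), 1 of 2 calls in the 12 fits without a mouse. DESeq2 called it with all libraries (adjusted p = 0.00722). Of the 22 glutathione genes listed beside the members, Gclm included, 19 were tested in each region, and with all libraries Gclm in the EC was the only call by edgeR. Without replicate 3 edgeR also called Gstm5, a glutathione transferase, lower in the EC (0.843, adjusted p = 0.0342, against 0.874 and 0.129 with all libraries), a gene picked after its values were seen.

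In the thioredoxin and peroxiredoxin list, 0 of 24 were called in the HIP and 1 in the EC. That was Sesn3, a sestrin, with a median of 284 CPM in the wt EC and 256 in the Ts65Dn EC, which fell to 0.884 of wt (edgeR, adjusted p = 0.0447). Without replicate 3 the fold change was 0.894 and not called (adjusted p = 0.0586), and with GC content and length removed it was 0.911 (adjusted p = 0.173). The edgeR call was kept in 2 of the 12 fits without a mouse, and DESeq2 also called Sesn3 in the EC (adjusted p = 0.00282).

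Among 15 tested partners and regulators of NRF2 and BACH1, 1 was called in each region by edgeR, with 1 more, Cul3, called lower in the EC by DESeq2. Dpp3 encodes a dipeptidyl peptidase that binds KEAP1, and its medians were 34.9 CPM in wt and 40.2 in Ts65Dn for the HIP, with 41.3 and 49.7 for the EC. All 6 Ts65Dn libraries were above all wt libraries in both regions. Dpp3 rose 1.17-fold in the HIP (edgeR, adjusted p = 0.0496) and 1.20-fold in the EC (adjusted p = 0.0285), and 1.18-fold and 1.20-fold without replicate 3. The call was kept in 1 of the 12 fits without a mouse in the HIP and in 6 in the EC, and DESeq2 called it in both regions (adjusted p = 0.00405 and 0.00134). With GC content and length removed it was not called (adjusted p = 0.269 and 0.178).

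Of 20 genes of haem and iron handling, 0 were called in either region by edgeR, with 7 of them (HIP) and 3 (EC) below 0.05 unadjusted, and DESeq2 called 0 (HIP) and 1 (EC). Ftl1, the ferritin light chain, had fold changes of 1.14 (HIP) and 1.17 (EC) (adjusted p = 0.135 and 0.0778), and Cpox, an enzyme of haem synthesis, 0.883 and 0.962 (adjusted p = 0.159 and 0.612). The DESeq2 call was Ftl1 (adjusted p = 0.0299), which edgeR called in the EC in 2 of the 12 fits without a mouse. Of 10 genes of copper supply and SOD1 maturation, 0 were called in either region by edgeR, with 1 in each region below 0.05 unadjusted, while DESeq2 called 1 lower in the HIP and 0 in the EC. Mt3, a brain metallothionein, had fold changes of 0.842 and 0.849 (adjusted p = 0.109 and 0.224). It was the gene called by DESeq2 in the HIP (adjusted p = 0.0331), and edgeR called it lower in both regions once GC content and length were removed (0.804 and 0.801, adjusted p = 0.0356 and 0.0475). Without replicate 3 Mt3 was at 0.862 and 0.816 and was not called. Atox1, a copper chaperone, had fold changes of 1.06 and 1.12 (adjusted p = 0.659 and 0.268).

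Among the superoxide sources, 12 of 19 genes were tested in each region, with 0 called in the HIP and 1 in the EC. Maoa, a mitochondrial monoamine oxidase that releases hydrogen peroxide, fell to 0.881 of wt in the EC (edgeR, adjusted p = 0.0475), a call kept in 1 of the 12 fits without a mouse and made by DESeq2 too (adjusted p = 0.00426). It was at 0.881 without replicate 3 (adjusted p = 0.0563) and at 0.985 after the removal of GC content and length (adjusted p = 0.910). The median log2 fold change of each of the 7 lists lay between -0.05 and 0.07 over both regions.

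**Figure D5:**
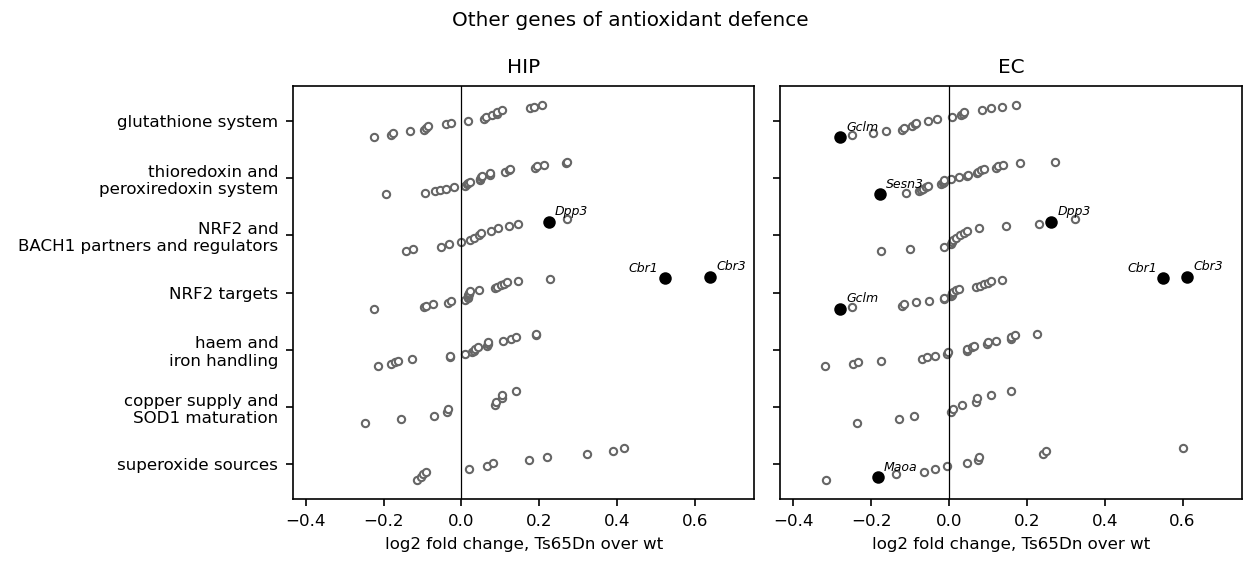
Log2 fold change, Ts65Dn over wt, of each tested gene in the 7 lists in the HIP (left) and the EC (right), 1 point per gene, with genes called at an adjusted p under 0.05 filled and named. Cbr1 and Cbr3, which are triplicated, lie at the right, and Gclm, Sesn3 and Maoa are filled on the left in the EC. Genes in more than 1 list appear in each.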

How the data were processed

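Per the labels and the study's methods, stranded libraries were read as 50-base single-end reads (bcl2fastq 2.17.1.14), though an mRNA kit is named in the labels and a ribosomal-depletion kit in the methods. The authors aligned the reads with Hisat2 to GRCm38 (mm10) and deposited raw counts per gene from HTSeq-count, without normalization. The authors' tables of their own comparisons, which hold mean normalized counts, fold changes, scores and p-values, were not used.

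Counts were tested with edgeR 4.0.16 (R 4.3.3; quasi-likelihood, filterByExpr, TMM, Benjamini-Hochberg over all genes, call at an adjusted p under 0.05) within each region, 6 against 6 mice, without covariates. The interaction and the wt region comparison had a term for each mouse. A mouse gave 1 library per region, so p-values measure the spread between these mice. CPM use TMM-scaled totals, and likeness was taken on log2 CPM (prior count 2). Genes were matched to GENCODE vM21 (99.6% matched). Intervals of fold changes are at 95%. Alternatives were DESeq2 1.42.0, its size factors, 2 other count filters, removal of GC content and length, a replicate block and leaving out each mouse. Fits that leave out Ts65Dn replicate 3 and also use DESeq2 or GC removal were added after seeing the data. The steps were tested on simulated data. Named genes were all members, the called genes of each list or else its 2 genes of smallest p, the 5 genes most like Sod1 and Bach1, and their neighbours. The members, lists and rules were chosen with earlier results of these data known.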

Additional observations from a re-analysis of the deposited data

Results flagged for a closer look

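Over 40 groups of 6 libraries (10 members in 4 groups), 6 held a library far from the other 5 by Dixon's criterion, which chance meets in about 1 group in 20. Of these, 2 were the library labelled Ts65Dn replicate 3, with Sod1 at 95.0 CPM in the HIP (nearest other 139) and Bach1 at 10.9 CPM in the EC (nearest other 18.6). Sod1 was at 122 CPM in wt EC replicate 2, against 104 in the next library. Sod3 was at 13.8 CPM in wt HIP replicate 2 (next 10.8) and at 21.4 CPM in Ts65Dn HIP replicate 1 (next 12.9), the libraries with the highest choroid plexus marker sums of their genotype. Nfe2l2 was at 13.0 CPM in Ts65Dn HIP replicate 4 (next 20.8), the HIP library with the lowest such sum. The part of that tissue was not tested.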

How the results depend on the processing

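Sod1 kept its direction and its call under all alternatives in the EC and all but 1 in the HIP. The replicate block combined with the removal of GC content and length gave it an adjusted p of 0.0506 there in edgeR. The number of members called in the HIP (2) became 1 with the replicate block, where Bach1 had an adjusted p of 0.0801, and 0 with the block and GC removal together. DESeq2 added Gpx1 in the HIP, both with all libraries (adjusted p = 0.00918) and without replicate 3 (adjusted p = 0.0163). In the EC the number of members called (1) became 2 with DESeq2 and without replicate 3 under GC removal or DESeq2, Bach1 being added. Leaving out each mouse in turn gave 1 to 2 members in each region (in the HIP without wt replicate 4 these were Sod1 and Gpx1, with Bach1 lost), 0 for the interaction and 7 to 8 between regions in wt. Other pathway genes called went from 3 to 5 (DESeq2), 7 (DESeq2 without replicate 3) and 0 (replicate block, alone or with GC removal) in the HIP, and from 6 to 0 (replicate block, alone or with GC removal) in the EC. Without each mouse they ranged from 0 to 4 and from 3 to 7. The HIP count was 0 without wt replicate 2, 3 or 5 or Ts65Dn replicate 1, 4 or 6. The causes of these shifts were not tested.

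Same-numbered wt and Ts65Dn libraries were not paired by the design. Their deviations correlated at -0.224 to 0.162 (HIP) and -0.104 to 0.167 (EC), with 1 of 6 closest to its own number, so the replicate block rests on a shared number only.

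The sign turned for log2 fold changes near 0. That of Nqo1 in the HIP (0.05 with all libraries) was -0.049 with GC removal and -0.079 with DESeq2, both without replicate 3, and -0.079 to 0.152 when single mice were left out. That of Maoa in the HIP (-0.11) was 0.010 with GC removal and 0.015 with the replicate block added. That of Sod2 in the EC (-0.02) was 0.0089 with GC removal and 0.015 with DESeq2, both without replicate 3, and -0.060 to 0.015 without single mice. Without single mice Nfe2l2 lay between -0.0037 and 0.153 (HIP) or between -0.030 and 0.063 (EC), and the Bach1 interaction between -0.017 and 0.114. Hmox1 and Nqo1 had the fewest counts of the members, which limits their precision.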
